A study of Drosophila melanogaster with 36 samples.

Results

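The proteasome is the particle that degrades proteins marked with ubiquitin, and 32 genes encode the subunits examined here. They are the 7 alpha and 7 beta genes of the core particle (Prosalpha1 to Prosalpha7 and Prosbeta1 to Prosbeta7) and 18 genes of the regulatory particle. Of these 18, 12 are Rpn genes (Rpn1, Rpn2, Rpn3 and Rpn5 to Rpn13) and 6 are Rpt genes (Rpt1 to Rpt6). The genes were matched by FlyBase symbol to the gene identifiers of the tables, and all 32 were found in each table, which list 12842 genes for head, 12394 for fat body and 11311 for ovaries. All 32 also passed the filter on low values in each tissue. The rule uses gene names and no measured value.

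The samples were adult Drosophila melanogaster females whose larvae had eaten either 100% sugar-yeast-agar (SYA), the M treatment, or 120% SYA, the H treatment, and which shared one diet as adults. No genotype or strain is named in the labels. Females were frozen once 10% (RNA-1) or 60% (RNA-2) of their cohort had died, and head, fat body and ovaries were sequenced with 3 libraries for each tissue, diet and time point, 36 in all. Each library is a pool of 11 or 12 females, and fat body stands for the abdomen without gut and ovaries, so it can hold other abdominal cells. In bulk samples of this kind, fewer cells of a type and less RNA per cell cannot be told apart.

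The core particle is a barrel of 4 stacked rings. The outer rings are made of alpha subunits, which open and close the way in, and the inner rings of beta subunits, of which Prosbeta1, Prosbeta2 and Prosbeta5 carry the cutting sites. The regulatory particle sits on the barrel: its Rpt subunits are ATPases that unfold the substrate and thread it inwards, Rpn10 and Rpn13 bind ubiquitin chains, Rpn11 cuts the chains off, and the other Rpn subunits form the scaffold and the lid. The subunits are needed in fixed proportions, and in flies, as in mammals, cells short of proteasome activity raise the transcription of subunit genes together through a transcription factor, which is cap-n-collar (cnc) in flies.

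The values are normalized read counts, given as the authors deposited them, and each tissue was normalized on its own, so levels in different tissues are set side by side without a test. Normalized counts summed to between 54.4 and 75.4 (in units of 1e6) per library over the 3 tissues. In head, 2 of the 3 M RNA-1 libraries (replicates 1 and 3) stood apart from the other 10, with counts that were low for long transcripts and high for short ones (r of deviation with log2 length -0.38 and -0.47, against 0.00 to 0.21 in the others). In fat body, the level of 9 germline markers differed between libraries of one group, with a mean on the log2 scale of 8.76 to 10.0 in M RNA-1, 5.77 to 6.59 in M RNA-2, 7.44 to 9.30 in H RNA-1 and 5.92 to 10.4 in H RNA-2. The 2 head libraries, and the 3 fat body libraries with the most germline RNA of M RNA-1 and H RNA-2, are called doubted, and counts of subunit genes and calls of related genes that rest on them are given with and without those libraries. Fat body H RNA-1 replicate 1, with the most germline RNA of its group (9.30), was not among the doubted and was kept. The defining markers of each labelled tissue were present in all of its libraries.

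The subunit genes were among the more strongly expressed genes of each tissue. Lengths are those of the transcript that Ensembl marks as canonical. Per kilobase, the median of the 32 genes was 4483 normalized counts for head, 8206 for fat body and 14269 for ovaries. The median over all genes tested was 678, 497 and 1404 in the same order. In fat body, core genes stood above regulatory genes: the 6 alpha genes other than Prosalpha1 spanned 9663 to 13859 normalized counts per kilobase and the 7 beta genes 10859 to 15363, while the Rpt genes spanned 5436 to 9781 and the median Rpn gene lay at 5336. In ovaries the same groups lay closer together, with the alpha genes at 17453 to 21739, the beta genes at 14615 to 20548, the Rpt genes at 10474 to 15954 and the Rpn genes at 9433 to 17678. In head the medians were 5394 for the alpha genes other than Prosalpha1, 5233 for beta, 4607 for Rpt and 3365 for Rpn genes. Sums per kilobase take 14 core and 18 regulatory genes, so an even ratio does not mean equal levels per gene. Core sums were 0.936 to 1.07 times regulatory sums over the 12 head libraries. They were 1.283 to 1.431 times in fat body and 1.02 to 1.12 times in ovaries. These ratios did not overlap between fat body and the other tissues, but read counts per kilobase from 3 separately normalized tables do not measure subunit amounts.

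The order of the genes was much the same in each tissue. Over the 31 genes without Prosalpha1, Spearman's rho of the level per kilobase was 0.93 between head and fat body, 0.75 between head and ovaries and 0.76 between fat body and ovaries, given as a description, since the points share gene lengths and counting. Prosbeta5, whose product carries the chymotrypsin-like cutting site, ranked 1st of 32 in head, 2nd in fat body and 3rd in ovaries. Rpn6, a lid subunit that in yeast clamps the regulatory particle to the core, ranked 4th in head and 3rd in fat body, apart from the other Rpn genes, with 13952 ± 1029 normalized counts per kilobase (SD, n = 12 libraries) in fat body. In ovaries Rpn6 ranked 15th, and Rpn11, the chain-cutting subunit, was the highest Rpn gene with 17678 ± 528. Rpn1 and Rpn2, the 2 large scaffold subunits, were at ranks 30 and 31 in head and fat body. Rpn1 was at rank 31 in ovaries too, whereas Rpn2 was at rank 25 there.

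Prosalpha1 was the lowest of the 32 genes in every tissue, far below the other alpha genes. Its values were 144 to 510 normalized counts in head, 222 to 936 in fat body and 748 to 1609 in ovaries, while the other 31 genes stayed between 0.494 and 1.87 times the median subunit gene per kilobase in all tissues. A near-copy, Prosalpha1R, lies 1734 bases away on the same strand (Prosalpha1 at 2R:7827303-7828678 and Prosalpha1R at 2R:7830413-7831771, minus strand, Ensembl annotation of BDGP6.54). Both genes have 3 coding exons of 76, 177 and 479 bases, 732 in all. Prosalpha1R was listed with 5153, 3999.9 and 6101 normalized counts in the M RNA-1 heads and with 9039 to 12846 across fat body libraries. Prosalpha1 made up 2.20% to 11.2% of the sum of both genes over the 36 libraries, and the sum per kilobase lay at 1.14, 1.45 and 1.19 times the median subunit gene in head, fat body and ovaries. Reads shared by 2 such genes can be split between them by the counting, so values of Prosalpha1 alone are uncertain. It was counted as 1 of the 32, and every comparison was also run on the sum.

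**Figure D1:**
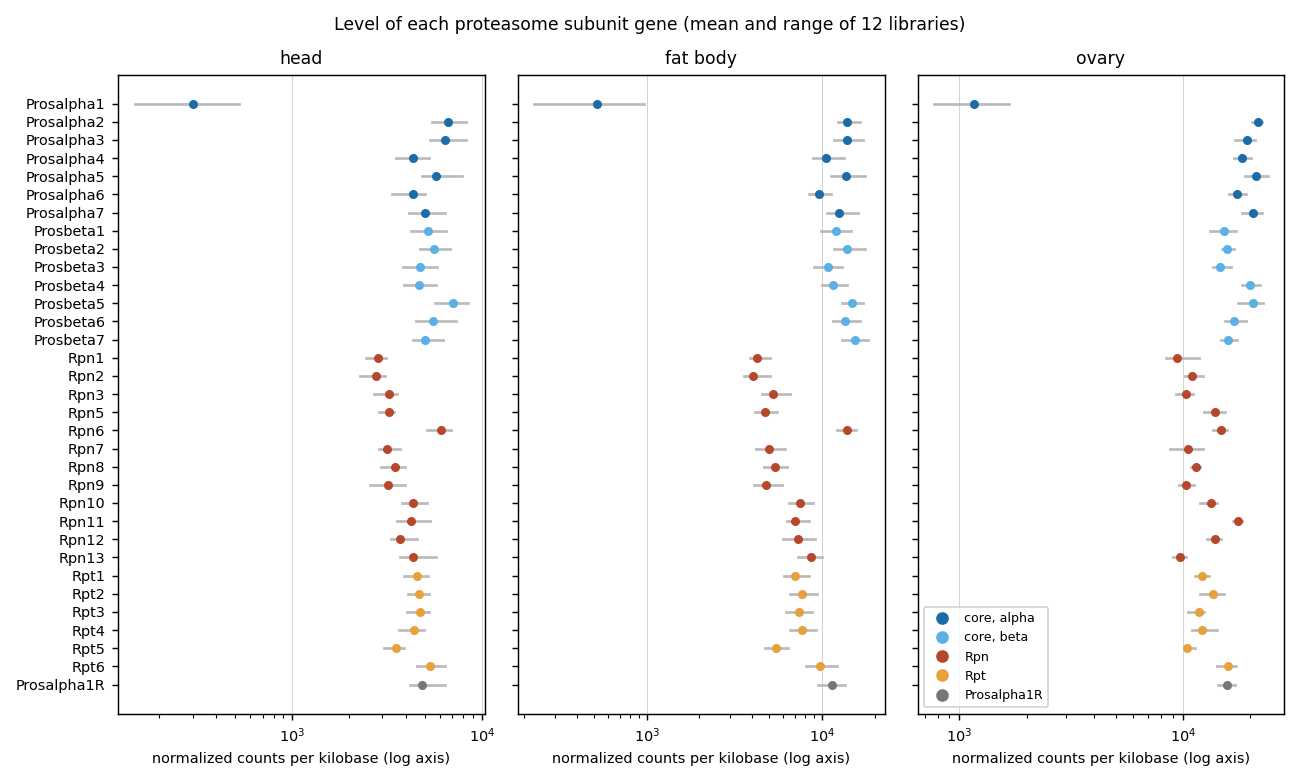
Normalized counts per kilobase of transcript (log axis) for the 32 subunit genes and Prosalpha1R in head, fat body and ovaries, with points for the mean of 12 libraries, grey lines for the lowest and highest library, and colours for the alpha, beta, Rpn and Rpt genes. Prosalpha1 lies far to the left in each tissue, Prosalpha1R lies among the subunit genes, and Rpn6 lies at the level of the core genes in head and fat body.

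Across the libraries of a tissue, the subunit genes moved together in head and fat body and less so in ovaries. The correlation of each gene with the mean of the others over 12 libraries had a median of 0.94 for head, 0.96 for fat body and 0.77 for ovaries over 31 genes without Prosalpha1, and passed 0.8 for 29, 29 and 13 of them. The mean of the core genes followed that of the regulatory genes with r = 0.95, 0.97 and 0.81 in the same order. These values describe the libraries and share their depth and scaling. The genes least like the rest were Rpn2 in head (r = 0.12), Rpn6 in fat body (r = 0.58) and Rpn5 in ovaries (r = -0.00), all regulatory, while Prosalpha1 had r = 0.28, 0.08 and 0.54. In head, Rpn1 (r = 0.44) and Rpn2 were the genes not past 0.8, and their transcripts are the longest, at 3041 and 3325 bases. The head libraries include the doubted M RNA-1 libraries, whose counts were low for long transcripts. The part of transcript length in these correlations was not tested.

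**Figure D2:**
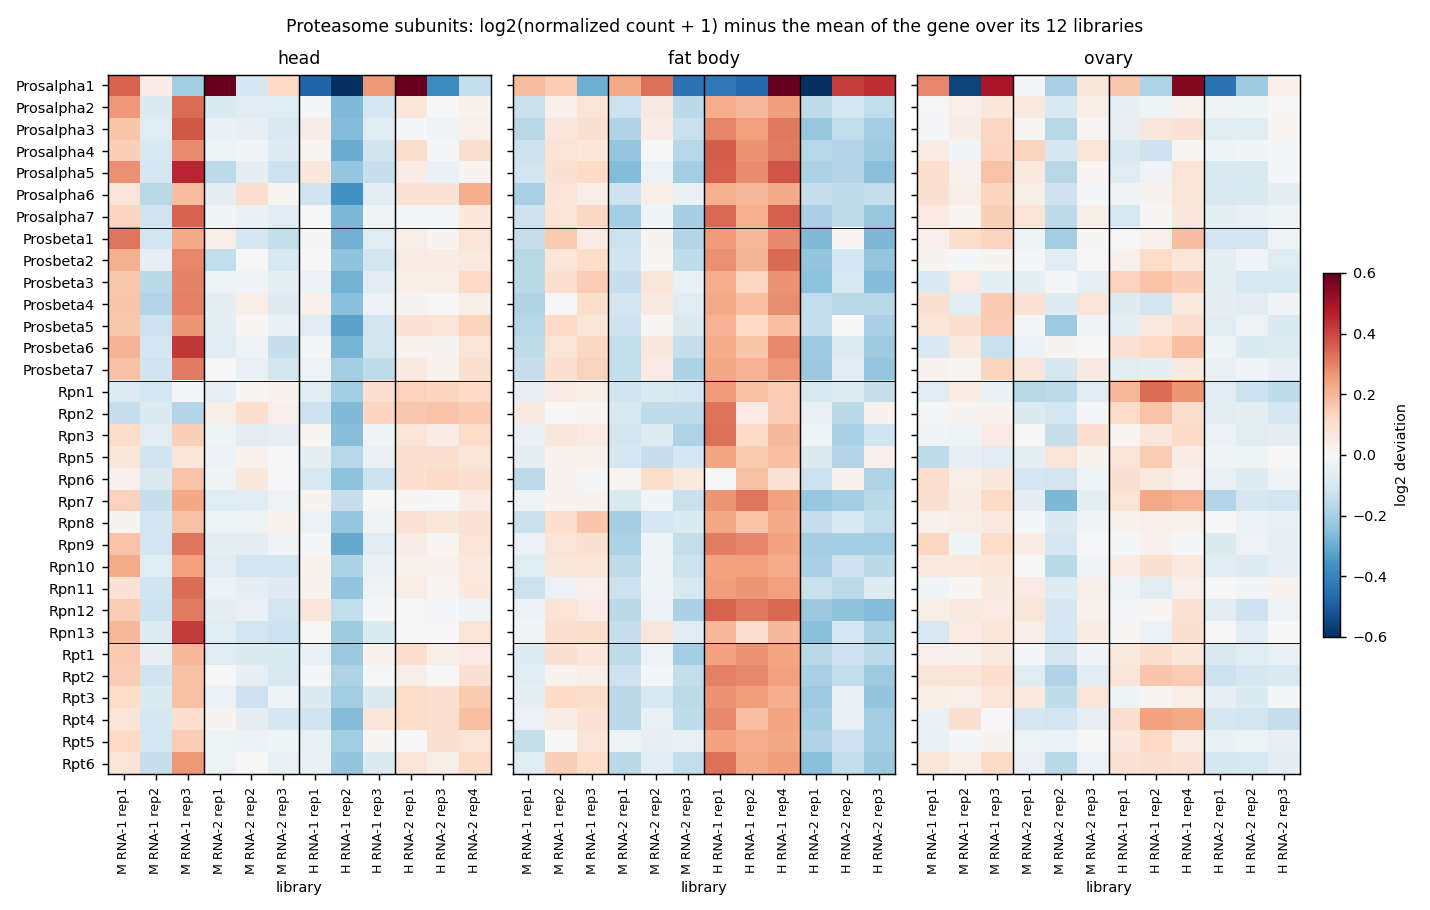
Each square gives log2(normalized count + 1) of a subunit gene (rows) in a library (columns) minus the mean of that gene over the 12 libraries of the tissue. Red is above and blue below that mean, the colour scale ends at 0.6 in each direction, and black lines separate groups of libraries and the alpha, beta, Rpn and Rpt genes. In fat body the 3 H RNA-1 libraries are red and the 3 H RNA-2 libraries blue in nearly every row, and in head 2 of the 3 M RNA-1 libraries are red.

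The largest median change was in the fat body of H females, where subunit genes fell with age. Of the 32 genes, 28 were lower in RNA-2 than in RNA-1 females and none was higher (by limma on log2(value + 1), Benjamini-Hochberg adjusted p under 0.05 over 10850 genes), beside 8.76% of all genes tested that were lower and 6.55% that were higher. The median log2 fold change of the 32 genes was -0.40, a median change of -24.1%, against 0.05 over all genes tested. In 30 of the 32 genes, the 3 H RNA-2 libraries lay below all 3 H RNA-1 libraries, as they did in 16.7% of all genes. Lower genes were 12 of 14 in the core, with a median of -0.40, and 16 of 18 in the regulatory particle, with a median of -0.39.

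Among the alpha genes of fat body, which build the gated outer rings, 6 of 7 fell in H females. Prosalpha5 had 15334, 14569.7 and 15541 normalized counts in H RNA-1 and 10498, 10589 and 10047 in H RNA-2 libraries. The 3 older libraries were all below the 3 younger ones, and the log2 fold change was -0.55 ± 0.08 (SE, n = 3 against 3, limma adjusted p = 0.00195). In M females the same gene had 11079, 12766 and 12999 in RNA-1 and 9991, 11668 and 10354 in RNA-2 libraries, which overlapped. Prosalpha4 went from 15709, 14756 and 15184 to 10847, 10822 and 10539 in H (-0.50 ± 0.08 on the log2 scale, limma adjusted p = 0.00244) and from 11198, 12938 and 12792 to 10410.1, 12222 and 10872 in M. Prosalpha7 went from 15380.1, 14085 and 15580.1 to 10627, 10930.5 and 10365 in H (-0.50 ± 0.08, limma adjusted p = 0.00353) and from 11163, 12861 and 13237 to 10532, 11997 and 10579.8 in M. In all 3 genes the H RNA-1 libraries were the highest of the 12. Prosalpha1 did not pass the test, at -0.11 ± 0.48, but with Prosalpha1R added to it the count of lower genes in H became 29. Prosalpha1R alone was lower in H, at -0.37 ± 0.09 (limma adjusted p = 0.0183).

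Among the beta genes of fat body, 6 of 7 fell in H females, including 2 of the 3 with cutting sites. Prosbeta1, the caspase-like subunit, had 12163, 11693 and 12433 in H RNA-1 and 8469.9, 10218 and 8443 in H RNA-2 libraries (-0.42 ± 0.10, limma adjusted p = 0.0172). Prosbeta2, the trypsin-like subunit, had 17256, 16486 and 18084 and 12143, 13291 and 12159 in the same groups (-0.46 ± 0.09, limma adjusted p = 0.00582). Prosbeta5 went from 19576, 18394 and 19161 to 15317, 16964 and 14802 and did not pass the test (-0.28 ± 0.09, limma adjusted p = 0.0591), although its older libraries were all below its younger ones. The beta genes without a cutting site (Prosbeta3, Prosbeta4, Prosbeta6 and Prosbeta7) lay between -0.41 ± 0.09 for Prosbeta7 and -0.39 ± 0.08 for Prosbeta4.

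Among the Rpn genes of fat body, 10 of 12 fell in H females. Rpn12, a lid subunit, showed the largest change of the 32 genes, from 9106, 8864 and 9061 in H RNA-1 to 6108, 6034 and 5948 in H RNA-2 libraries. That was a log2 fold change of -0.58 ± 0.06 (limma adjusted p = 0.000292), a change of -33.1%. In M females Rpn12 went from 6956, 7557 and 7372 to 6379, 6967 and 6237 (-0.16 ± 0.06, limma adjusted p = 0.105). The H RNA-1 libraries were thus the highest of the 12 and the H RNA-2 libraries the lowest. Rpn7, also of the lid, went from 8223, 8569 and 8102 to 5851, 5938 and 6121 in H (-0.47 ± 0.05, limma adjusted p = 0.000556) and from 6711, 6958 and 6948 to 6454, 6775 and 6239.5 in M (-0.08 ± 0.05). Its H RNA-2 libraries were again below all others. Rpn9, another lid subunit, went from 9302, 9200.3 and 8873 to 6548, 6527 and 6491 in H (-0.48 ± 0.06, limma adjusted p = 0.000796) and from 7319.6, 7926 and 8007 to 6585, 7374 and 6794 in M.

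The subunits that handle ubiquitin moved in the same direction. Rpn10, a ubiquitin receptor, went from 12547, 12599 and 12375 to 9258, 9742 and 9492 in H fat body (-0.40 ± 0.06, limma adjusted p = 0.00251). Rpn13, the other receptor, had a log2 fold change of -0.34 ± 0.07 (limma adjusted p = 0.0116), and Rpn11 one of -0.38 ± 0.06 (limma adjusted p = 0.00257). The Rpn genes that did not pass were Rpn2 (-0.24 ± 0.08, limma adjusted p = 0.0693) and Rpn6 (-0.18 ± 0.08, limma adjusted p = 0.153). Rpn6 is named here after its values were seen: it had 22466, 25316 and 23792 in younger and 20488, 22789 and 19758 in older H females, with 20129, 22727 and 22336 in younger and 22627, 24122 and 23329 in older M females. Its groups overlapped, and apart from Prosalpha1 it had the smallest change of the 32. All 6 Rpt genes, the ATPases, fell, with log2 fold changes, from -0.38 ± 0.07 for Rpt4 to -0.48 ± 0.07 for Rpt6.

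**Figure D3:**
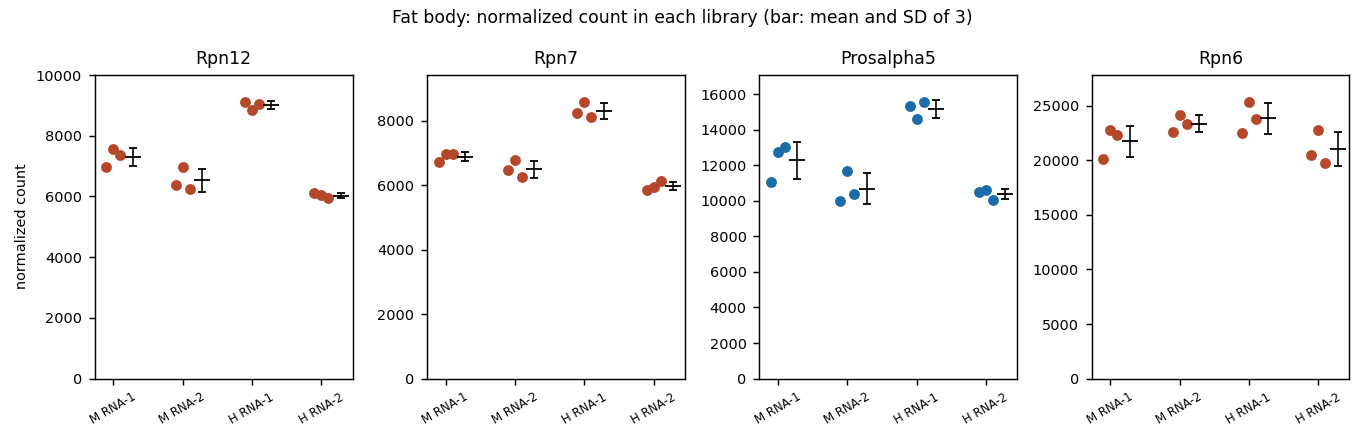
Normalized counts in the 12 fat body libraries for Rpn12, Rpn7, Prosalpha5 and Rpn6, with points for single libraries and bars for the mean and SD of 3, on axes that start at 0. For Rpn12, Rpn7 and Prosalpha5 the H RNA-1 libraries lie above all others, and for Rpn6 the groups overlap.

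The fall in H fat body depended on the scaling and on the libraries. Divided by each library's total, all genes tested had a median log2 fold change of 0.37 and the 32 genes one of -0.07. Only Rpn12 then passed the test. This division shifts all genes by nearly the same amount, so the distance of the 32 genes from all genes stays at -0.44 by construction. With quantile normalization 22 genes were lower, and the median was -0.27 against 0.00 over all genes. As a share of the library total, subunit genes made up 0.557% to 0.646% in H RNA-1 and 0.533% to 0.588% in H RNA-2 libraries, which overlapped. Library totals, in the same units of 1e6, were 66.7 to 75.4 for the younger and 54.4 to 62.96 for the older H libraries. The libraries with the most germline RNA were replicate 1 among M RNA-1 and replicates 1 and 3 among H RNA-2, and without these 3 doubted libraries 4 genes (Rpn7, Rpn9, Rpn11 and Rpn12) were lower and the median was -0.36; this leaves 1 H RNA-2 library, assumed to vary like the other groups. Leaving out 1 library at a time gave 21 to 30 lower genes, and the germline mean as a covariate gave 29.

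Other markers moved in the same comparison. Of 7 fat body markers, 4 were lower in H RNA-2, and their summed level was 5751059 to 6981285.9 normalized counts in H RNA-1 and 2298242 to 2742477.5 in H RNA-2. Of 5 gut markers, 3 were lower (343391 to 981059 and 71146.7 to 280762.5), and of 10 follicle and eggshell markers, 2 were lower (8016.5 to 26136 and 381 to 1176). Of 7 muscle markers, 2 were lower (99049.8 to 188909.7 and 98520.8 to 117928), and none of the 9 germline markers passed (2574 to 8708 and 1375.7 to 17412). No marker of these lists was under 1 in all libraries of a group. Beyond the fit with the germline mean as a covariate, their part in the change of the subunit genes was not tested.

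In the fat body of M females, no subunit gene passed the test in either direction, beside 8.52% of all genes that were higher and 5.07% that were lower. The median log2 fold change was -0.11, against -0.02 over all genes, 30 of the 32 values were below 0, and 6 genes had an unadjusted p under 0.05. In 6 regulatory genes the RNA-2 libraries lay below all RNA-1 libraries, as in 19.9% of all genes. With the trend of counts on transcript length removed, 13 genes were lower in M, and with quantile normalization 12 were. Without M RNA-1 replicate 1, 1 gene was lower. With quantile normalization the median was -0.23 in M, against 0.03 over all genes, and -0.27 in H. The medians of the 2 diets thus lay closer together on that scale. Among the markers, 4 of 7 for fat body, 5 of 10 for follicle and eggshell and 3 of 9 for germline were lower in M. Beyond the fit with the germline mean as a covariate, their part was not tested.

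The difference between the diets in the change with age was tested with the interaction (change in H minus change in M). All 32 values were below 0, with a median of -0.30 against 0.02 over all genes, and 2 genes passed the test, beside 1.75% of all genes that were lower and 0.267% that were higher. These were Rpn7 (-0.39 ± 0.08, limma adjusted p = 0.038) and Rpn12 (-0.42 ± 0.08, limma adjusted p = 0.0389). Neither passed after division by library totals, with quantile normalization, without the variance trend, with the germline covariate or without the doubted libraries, and 1 passed with the length trend removed. For the other 30 genes a difference between the diets in the change with age was not shown, though 23 of the 32 had an unadjusted p under 0.05. Without H RNA-2 replicate 2, 8 genes passed. None passed without replicate 1 of any group, without replicate 2 of M RNA-1 or H RNA-1, without replicate 3 of M RNA-2 or H RNA-2, or without H RNA-1 replicate 4, and 1 passed without M RNA-1 replicate 3.

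At RNA-1, subunit genes of fat body were higher in H than in M females by a median of 0.22 on the log2 scale, against -0.02 over all genes. All 32 values were above 0, and in 26 genes the 3 H libraries lay above the 3 M libraries, as in 12.9% of all genes. Only Rpn12 passed the test (0.31 ± 0.06, limma adjusted p = 0.046), beside 0.488% of all genes that were higher and 0.498% that were lower. With 1 library left out, none passed in 9 of 12 cases, which were replicate 1 of any group, M RNA-1 replicates 2 and 3, H RNA-1 replicates 2 and 4 and H RNA-2 replicate 3. There were 2 without H RNA-2 replicate 2 and 4 without M RNA-2 replicate 2. At RNA-2 the median was -0.08 and no gene passed, beside 0.581% of all genes that were lower and 0.0184% that were higher, and in 7 genes the H libraries lay below the M libraries, as in 13.6% of all genes. The means of 25 of the 32 genes had the order H RNA-1, M RNA-1, M RNA-2, H RNA-2 from high to low, an order found in 7.13% of all genes tested. In ovaries 12 of 32 had that order (9.93% of all genes), and in head 15 of 32 had the order M RNA-1, H RNA-2, M RNA-2, H RNA-1 (4.16%). The comparisons of diets and of ages share these libraries, so the order is not a further result.

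**Figure D4:**
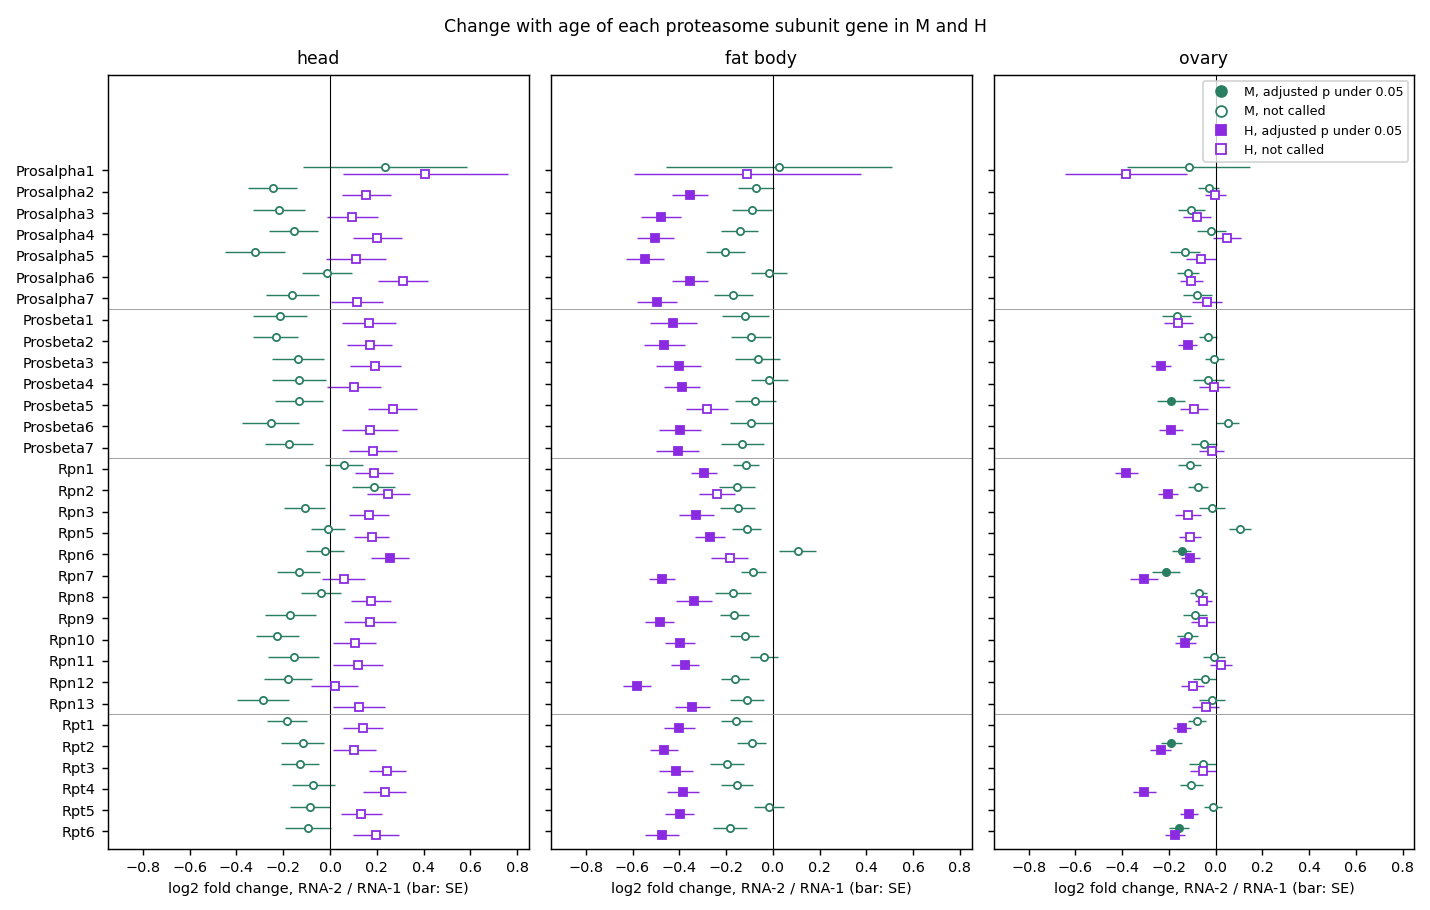
Log2 fold change of RNA-2 against RNA-1 for each subunit gene in M (circles) and H (squares), with bars for the standard error and filled symbols for a limma adjusted p under 0.05. In fat body 28 of 32 squares are filled and lie left of 0, in ovaries 13 squares and 5 circles are filled, and in head 1 square is filled.

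In ovaries the subunit genes changed less, and the genes that passed the test were mostly regulatory. In H females 13 of 32 genes were lower in RNA-2 than in RNA-1 and none was higher, beside 22.8% of all genes that were lower and 25.0% that were higher. The median was -0.11, against 0.01 over all genes, and in 20 genes the older libraries lay below all younger ones, as in 29.4% of all genes. The lower genes were 3 of 14 core genes (Prosbeta2, Prosbeta3 and Prosbeta6) and 10 of 18 regulatory genes (Rpn1, Rpn2, Rpn6, Rpn7, Rpn10, Rpt1, Rpt2, Rpt4, Rpt5 and Rpt6). No alpha gene passed. In M females 5 genes were lower (Prosbeta5, Rpn6, Rpn7, Rpt2 and Rpt6) and none was higher, beside 10.6% lower and 9.76% higher, with a median of -0.08 against -0.00 over all genes, and 12 had no overlap in that direction, as had 18.6% of all genes.

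Rpn1, the scaffold subunit that in yeast also binds shuttle proteins, had the largest called change in ovaries. It had 32675, 35914 and 34240.4 normalized counts in H RNA-1 and 27148, 26054 and 25676 in H RNA-2 libraries, while the M libraries had 27269.7, 29354 and 27743 at RNA-1 and 25412, 25554 and 27178 at RNA-2. Thus the H RNA-1 libraries lay above the other 9. The log2 fold change was -0.38 ± 0.05 in H (limma adjusted p = 0.000146) and -0.11 ± 0.05 in M (limma adjusted p = 0.131). Rpt4 went from 18879, 20886 and 20698 to 16498, 16363 and 15996 in H (-0.31 ± 0.05, limma adjusted p = 0.000424) and from 17199, 18838 and 17613 to 16499.7, 16323 and 17047 in M (-0.10 ± 0.05, limma adjusted p = 0.15). Rpt2 went from 23168, 24772 and 24474 to 20192, 20577 and 20717 in H (-0.24 ± 0.04, limma adjusted p = 0.000969) and from 23194, 23216 and 23664 to 20959, 19436 and 21089 in M (-0.19 ± 0.04, limma adjusted p = 0.0124). Both are ATPases, and of this pair Rpt2 passed in both diets.

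Of the core genes in ovaries, Prosbeta3 went from 14670.0, 15029 and 14703 in H RNA-1 to 12801, 12475 and 12511 in H RNA-2 libraries (-0.23 ± 0.04, limma adjusted p = 0.000813), and had 12522, 13775 and 12847 in M RNA-1 and 12842, 13261 and 12866 in M RNA-2. Prosbeta6 went from 16890.0, 17321 and 18076 to 15629, 15034 and 15110.4 in H (-0.19 ± 0.05, limma adjusted p = 0.00766), and had 14904, 16516 and 14526 and 15538, 16111 and 15881 in M. Neither has a cutting site, and in both the H RNA-1 libraries were the highest. Of the cutting subunits, Prosbeta5 went from 24565, 24949 and 25988 to 23233, 20052 and 23033 in M (-0.19 ± 0.06, limma adjusted p = 0.0436) and from 22411, 24354 and 25050.4 to 22383, 22828 and 21999 in H (-0.09 ± 0.06, limma adjusted p = 0.22). Prosbeta2 had -0.12 ± 0.04 in H (limma adjusted p = 0.0229), and Prosbeta1 had -0.16 ± 0.06 (limma adjusted p = 0.0532). Of the ubiquitin-handling subunits, Rpn10 was lower in H (-0.13 ± 0.04, limma adjusted p = 0.0298), while Rpn11 had 0.02 ± 0.05 and Rpn13 -0.04 ± 0.06.

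At RNA-1, 5 subunit genes were higher in H than in M ovaries and none was lower, beside 11.5% of all genes that were higher and 13.5% that were lower. Rpn1 was 0.29 ± 0.05 higher on the log2 scale (limma adjusted p = 0.00771), Prosbeta3 0.18 ± 0.04 (limma adjusted p = 0.0131), Rpn5 0.18 ± 0.05 (limma adjusted p = 0.0185) and Prosbeta6 0.19 ± 0.05 (limma adjusted p = 0.0208). Rpt4 also passed. Rpn5, a lid subunit, had 23675, 25408 and 25152 in M RNA-1, 25379, 27749.5 and 26694 in M RNA-2, 27805, 29268 and 27198 in H RNA-1 and 25975, 25887 and 26257 in H RNA-2 libraries, so its H RNA-1 libraries overlapped with those of M RNA-2. The median of the 32 genes was 0.00, and in 9 of them the H libraries lay above the M libraries, as in 20.2% of all genes. This comparison shares the H RNA-1 libraries with the change in H. At RNA-2 no gene passed, beside 0.0212% of all genes that were higher and 0.0106% that were lower, and 1 gene had its H libraries below its M libraries, as had 4.63% of all genes. The interaction had no call among all 9438 genes (adjusted p under 0.05 by limma), with 6 of the 32 at an unadjusted p under 0.05. Without M RNA-1 replicate 2, 3 of the 32 were lower in the interaction.

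The counts in ovaries moved with scaling and libraries too. Divided by library totals, 5 genes were lower and 3 higher in H, with a median of 0.02 against 0.13 over all genes, and with quantile normalization 7 were lower. In M, 1 gene was lower without M RNA-1 replicate 1, M RNA-1 replicate 3 or M RNA-2 replicate 2, and 3 without M RNA-1 replicate 2. At RNA-1, 1 gene was higher in H without M RNA-1 replicate 1, M RNA-1 replicate 3 or H RNA-1 replicate 2, and 3 without H RNA-1 replicate 4. Of 10 follicle and eggshell markers, 8 were lower with age in each diet, with a summed level of 1489222 to 2076961.6 in H RNA-1 and 83461 to 180179 in H RNA-2. Of 9 germline markers, 6 were lower and 1 higher in H (239134.6 to 275872 and 205201.7 to 211217), and of 6 muscle markers 4 were lower in H. In M, 8 of 8 eye markers and 3 of 3 gut markers were lower. At RNA-1, 6 of 9 germline and 5 of 6 muscle markers were higher in H than in M, and none of these was lower. Of 7 fat body markers 1 was higher and 1 lower there, and no follicle and eggshell marker passed. Of the fat body markers, 1 was under 1 in every M RNA-2 library and no follicle or germline marker was. The part of these markers in the changes with age and in the difference between diets was not tested.

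In head the log2 fold changes with age lay above 0 in H females and mostly below 0 in M females, where division by library totals put the median at 0.13 in place of -0.14 as it raised all genes, and only 1 gene passed the test. In H, all 32 log2 fold changes were above 0, with a median of 0.17 against -0.01 over all genes. Only Rpn6 passed, beside 11.0% of all genes that were higher and 8.56% that were lower, and in 21 genes the 3 H RNA-2 libraries lay above the 3 H RNA-1 libraries, as in 20.9% of all genes. Rpn6 had 9246, 8318 and 9005 in H RNA-1 and 10539, 10658 and 10497 in H RNA-2 heads, and the log2 fold change was 0.26 ± 0.08 (limma adjusted p = 0.0442). In M heads Rpn6 had 10011, 9252 and 11058 in RNA-1 and 9677, 10303 and 9831 in RNA-2, which overlapped (-0.02 ± 0.08).

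The other head genes with small p did not pass. Rpt3, an ATPase, went from 6877, 6308 and 6848 to 7849, 7777 and 8112 in H (0.25 ± 0.08, limma adjusted p = 0.0547) and had 7863, 6880.4 and 8226 and 7118, 6675 and 7151 in M. Rpn2 had 8401, 7607 and 10001 and 10225, 10309 and 10197 in H (0.25 ± 0.09, limma adjusted p = 0.0864) and 8324, 8651 and 8096 and 9389.5, 9785 and 9349 in M (0.19 ± 0.09, limma adjusted p = 0.139). Rpn2, the longest of the 32 transcripts at 3325 bases, had its M RNA-1 libraries below its M RNA-2 libraries, as in 21.0% of all genes, and no other subunit gene did this. Rpt1 alone had them above, as in 21.3% of all genes. Prosalpha6 had 4274, 3607 and 4443 and 4928, 4932 and 5402 in H (0.31 ± 0.11, limma adjusted p = 0.0641) and 4903, 4145 and 5282 and 4472, 4986 and 4682 in M. Prosbeta5 had 7689, 6424 and 7411 and 8544, 8481 and 8809 in H (0.27 ± 0.10, limma adjusted p = 0.1) and 8986, 7367 and 9653 and 7713, 8063 and 7812 in M. In all 32 genes H RNA-1 replicate 2 was the lowest of the 12 heads. Of the other cutting and ubiquitin-handling subunits, Prosbeta1, Prosbeta2, Rpn10, Rpn11 and Rpn13 had log2 fold changes of 0.17 ± 0.11, 0.17 ± 0.10, 0.11 ± 0.09, 0.12 ± 0.11 and 0.13 ± 0.11 in H, and none passed.

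In M heads no gene passed, beside 15.8% of all genes that were higher and 16.1% that were lower, and 29 of 32 values were below 0 with a median of -0.14 against 0.02 over all genes. After division by each total the median over all genes was 0.29 and 4 subunit genes were higher. As this shifts all genes nearly alike, the distance of the subunit genes from all genes stayed at -0.16. With quantile normalization that distance was -0.20, and no subunit gene passed. Prosalpha5 had 6114, 4687 and 6942 in M RNA-1 and 4535, 4867 and 4614 in M RNA-2 heads (-0.32 ± 0.13, limma adjusted p = 0.0737), beside 5277, 4298 and 4582 and 5202, 4915 and 5108 in H. The high values were those of M RNA-1 replicates 1 and 3, the libraries with the length trend, and replicate 2 lay near the M RNA-2 libraries. Without replicate 2, 22 genes were lower in M with a median of -0.26, and without replicates 1 and 3 none was and the median was 0.07; this leaves 1 M RNA-1 library, assumed to vary like the other groups. No gene passed in the interaction, beside 0.0804% of all genes that were higher and 0.0714% that were lower, or in H against M at RNA-1, beside 0.643% that were higher and 2.75% that were lower. At RNA-1, 2 regulatory genes had all H heads below all M heads, as had 10.7% of all genes. Without M RNA-1 replicate 2, 28 genes passed in the interaction and 27 were lower in H at RNA-1. None of the 12 fits without 1 library had a subunit gene higher in M.

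M RNA-1 libraries do not enter the fold changes of H heads, only the spread used to test them. The count of higher genes was 7 without M RNA-1 replicates 1 and 3, where the fold changes stay as they are, 14 with the trend on transcript length removed and 23 after division by library totals, which moved the median of all genes to 0.16 and that of the 32 genes to 0.34. With 1 library left out it was 0 to 6: it was 6 without M RNA-1 replicate 2, 4 without H RNA-1 replicate 3, 3 without M RNA-1 replicate 3 and 0 without any of the other 9. At RNA-2 the 3 H heads lay above the 3 M heads in 28 of 32 genes, as in 10.7% of all genes, with a median of 0.11 against 0.00 over all genes, but no gene passed, beside 0.0357% of all genes that were higher and 0.161% that were lower. Of 8 eye markers, 8 were lower with age in each diet (summed level 2389650.6 to 3017027 in H RNA-1 and 677311 to 970225.8 in H RNA-2), and of 7 fat body markers 3 were lower and 2 higher in H (3210658.6 to 4347301.5 and 1806285.8 to 2208116.7). Of 6 neuron markers, 3 were lower in H (174020.7 to 215971.9 and 118326 to 121643.8) and 1 in M. None was under 1 in all libraries of a group, and their part in the change of the subunit genes was not tested.

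**Figure D5:**
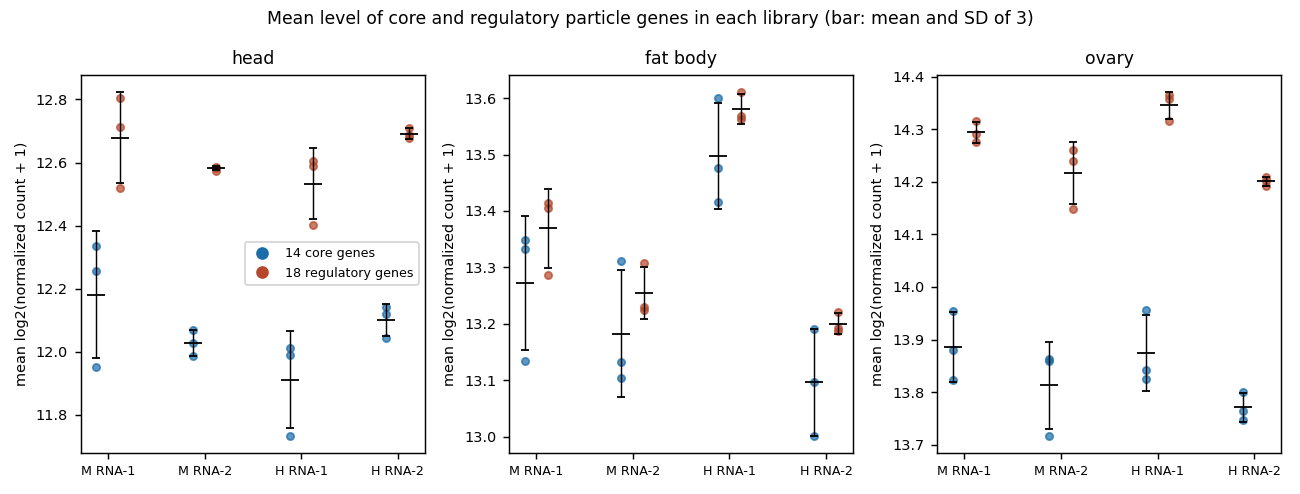
Mean of log2(normalized count + 1) over the 14 core genes (blue) and the 18 regulatory genes (red) in each library, by tissue and group, with bars for the mean and SD of 3 libraries. In fat body both means are highest in the H RNA-1 libraries, and in head the 3 M RNA-1 libraries are widely spread.

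The medians of core and regulatory genes lay close together in each change with age. In H fat body they were -0.40 and -0.39, in M fat body -0.09 and -0.13, in H heads 0.17 and 0.17, in M heads -0.17 and -0.11, in H ovaries -0.09 and -0.12 and in M ovaries -0.06 and -0.08. In ovaries core genes called in either diet were fewer than regulatory genes. They were 3 of 14 against 10 of 18 in H and 1 of 14 against 4 of 18 in M. The median standard error in ovaries was 0.060 for core and 0.047 for regulatory genes, so a core gene needed a larger change to pass. Summed per kilobase, core genes were 1.0155, 1.0155 and 1.0719 times regulatory genes in the H RNA-1 ovaries (replicates 1, 2 and 4). In the other 9 ovary libraries they were 1.0708 to 1.1165 times, so the ranges overlapped. H RNA-1 replicates 1 and 2 also had the highest r of deviation with log2 length among ovary libraries (0.137 and 0.120). The part of transcript length in this ratio was not tested. These are counts and medians with no test of the difference between core and regulatory particle.

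Genes that act beside the particle were counted as whole lists. Of 11 assembly factors and cofactors, 7 were lower and 1 higher with age in H fat body, with a median of -0.36. Of all genes, 8.76% were lower and 6.55% higher there, and none of the 11 passed in M. Usp14, a deubiquitinase that docks on the regulatory particle, went from 10467, 9945 and 9710.5 in H RNA-1 to 7586, 6974 and 7616 in H RNA-2 libraries (-0.44 ± 0.06, limma adjusted p = 0.00153). Sem1, a small lid subunit, went from 5352, 5279 and 5405 to 3909, 3873 and 3938 (-0.45 ± 0.07, limma adjusted p = 0.00195). Both had no overlap between the groups. Ecm29, an adaptor between core and regulatory particle in yeast, and Pomp, the maturation factor of the core, were also lower (-0.41 ± 0.08 and -0.56 ± 0.11, limma adjusted p = 0.00583 and 0.00623). The higher one was REG, an alternative cap that takes the place of the regulatory particle, from 3786, 3526 and 3531 to 4639.9, 4318 and 4458 (0.31 ± 0.06, limma adjusted p = 0.00671).

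Without the doubted fat body libraries, which leaves 1 H RNA-2 library, Usp14 and Sem1 still passed (limma adjusted p = 0.0225 and 0.0402), and Ecm29, Pomp and REG did not (0.118, 0.0806 and 0.129), nor did the 3 others of the list. In ovaries Ecm29 was lower in both diets, from 5243, 6383 and 4877 to 2693, 4506 and 3724 in M (-0.62 ± 0.16, limma adjusted p = 0.0247) and from 7570.5, 8728 and 7910.0 to 4057, 4209 and 4291 in H (-0.94 ± 0.16, limma adjusted p = 0.000931). It was the only member of the list called in M, beside 10.6% of all genes that were lower, and Rad23, a shuttle protein that brings ubiquitin chains to the particle, was higher in H (0.19 ± 0.06, limma adjusted p = 0.0131). In H ovaries 22.8% of all genes were lower and 25.0% higher, so 1 of 11 in each direction is below the share of all genes. In head 2 of the 11 were higher in H, ntc (0.40 ± 0.09, limma adjusted p = 0.00908) and rngo (0.22 ± 0.06, limma adjusted p = 0.0331), the latter a ubiquitin shuttle protein, beside 11.0% of all genes that were higher, and none passed in M.

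Of 10 genes for ubiquitin, its enzymes and p97 cofactors, 2 were lower in H fat body. They were Ubi-p63E, a polyubiquitin gene, from 85665, 95812 and 96161 to 66010.2, 75132 and 64236 (-0.44 ± 0.09, limma adjusted p = 0.00812), and Ufd1-like, a p97 cofactor (-0.37 ± 0.07, limma adjusted p = 0.00656). Ubi-p63E also passed in the interaction of fat body (-0.61 ± 0.12, limma adjusted p = 0.0389), since in M it had 64474, 74382 and 70426 in RNA-1 and 77557, 79665 and 79032 in RNA-2 libraries. Without the doubted libraries Ubi-p63E and Ufd1-like did not pass in H (limma adjusted p = 0.19 and 0.0871), nor did Ubi-p63E in the interaction (0.395). The 2 of 10 lower in H fat body stand beside 8.76% of all genes. In the other changes with age the counts were near or below the share of all genes: 1 was higher and 1 lower in heads of each diet (15.8% and 16.1% of all genes in M, 11.0% and 8.56% in H), 2 were higher and 1 lower in H ovaries (25.0% and 22.8%) and 1 was lower in M ovaries (10.6%).

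Of the 4 genes around cnc, 1 was lower with age in H heads and 1 in H fat body, beside 8.56% and 8.76% of all genes. In M heads 1 was higher and 1 lower (15.8% and 16.1% of all genes), and in M fat body none passed. In ovaries 1 was higher in each diet (9.76% of all genes in M and 25.0% in H). Keap1, whose product holds the Cnc protein in check, changed most. In H it went from 2854, 2950.0 and 2994 to 1477, 1938 and 1576 in fat body (-0.83 ± 0.13, limma adjusted p = 0.00269) and from 3210.2, 3162 and 2535 to 1438, 1653 and 1686 in head (-0.89 ± 0.10, limma adjusted p = 9.13e-05). The groups did not overlap in either tissue. In M heads it had 2015, 2149 and 1955 in RNA-1 and 1959.9, 1919 and 1865 in RNA-2, and at RNA-1 it was higher in H than in M heads (0.53 ± 0.10, limma adjusted p = 0.0234). The interaction did not pass for Keap1 in head or fat body (limma adjusted p = 0.0532 and 0.0574). A difference between the diets in its change with age was thus not shown. The RNA of cnc itself was higher with age in M heads (0.29 ± 0.08, limma adjusted p = 0.0234), and that of its partner maf-S lower (-0.57 ± 0.12, limma adjusted p = 0.0059). In ovaries Pngl, whose mammalian relative activates a Cnc-like factor, was higher with age in M (0.21 ± 0.06, limma adjusted p = 0.0241) and in H (0.36 ± 0.06, limma adjusted p = 0.000392). Of these calls in head and fat body, that of Keap1 in H heads held without the doubted libraries (limma adjusted p = 0.000191). Those of Keap1 in H fat body (0.0866) and in H against M heads at RNA-1 (0.319), and of cnc (0.379) and maf-S (0.127) in M heads, did not.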

How the data were processed

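Females of 2 larval diets and 2 time points were compared within each of 3 tissues, with 3 libraries per group (pools of 11 or 12 females), assigned from their labels. The signal values were deposited by the authors as counts estimated with kallisto 0.46.1 on BDGP6 and normalized with DESeq2 1.28.1 in R 4.0.1. No count model was fitted, because the values are not whole reads and their depth is unknown. The tables' columns of fold changes and p-values hold the authors' own comparisons and were not used. In R 4.3.3, log2(value + 1) was fitted by limma 3.58.1, for genes that reached 10 normalized counts in 3 or more of the 12 libraries (variance trend, robust, statmod 1.5.0), 4 groups per tissue, with Benjamini-Hochberg adjustment over all genes and a threshold of 0.05. The fit was tested on simulated data. P-values measure the spread between pools. Exons of 13 of the 32 genes overlap a gene on the opposite strand by 1 to 182 bases, and the library kit keeps strand. The members and lists were chosen with earlier results of these data known. Values in every library are given, per tissue, for the 3 core and 3 regulatory genes with the smallest p for the change with age and for genes called between diets, and the cutting and ubiquitin-handling subunits are always described. Of other lists, up to 4 called genes are named, and REG in addition, as the called gene of its list that was higher in H fat body. Alternatives were another scaling (library totals, quantiles), other filters (none, or at least 50) and pseudocount (5), no trend, the 6 libraries alone, a replicate block, removal of the length trend (lowess span 0.4), a germline covariate and leaving out libraries. Summing Prosalpha1 and Prosalpha1R, and testing related genes without the doubted libraries, were chosen after seeing the data. Sequences were not used here.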

Additional observations from a re-analysis of the deposited data

Results flagged for a closer look

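In fat body the change with age differed between the diets for 2 subunit genes by the interaction test. The log2 difference, H minus M, was -0.39 for Rpn7 and -0.42 for Rpn12 (limma adjusted p = 0.038 and 0.0389, n = 3 libraries per group). For both genes the 3 H RNA-2 libraries were the lowest of the 12 and the 3 H RNA-1 libraries the highest. Neither gene passed after division by library totals, with quantile normalization, without the variance trend, with the germline mean as a covariate or without the doubted libraries, and no subunit gene passed in 9 of the 12 fits without 1 library.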

How the results depend on the processing

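The limits below concern counts of the 32 subunit genes past the threshold, and the cause was not tested where a count moved. Division by library totals gave 4 higher in M heads, 23 higher in H heads, 1 higher in M fat body, 1 lower in H fat body, 0 in the interaction and 0 at RNA-1 in fat body, 1 higher and 1 lower in M ovaries, 3 higher and 5 lower in H ovaries, and 2 higher and 1 lower at RNA-1 in ovaries. It turned the direction of Rpn1, Rpn3 and Rpn5 in H fat body (0.0332, 0.000218 and 0.0585 on the log2 scale) and of Prosbeta2, Rpn6 and Rpt5 in H ovaries (0.00599, 0.0179 and 0.0120), where this scaling raised the median of all genes to 0.37 and 0.13, so that these genes stayed below it. Quantile normalization gave 0 in H heads, 12 lower in M fat body, 22 lower in H fat body, and 0 in the interaction and 0 at RNA-1 in fat body. In ovaries it gave 1 higher and 2 lower in M and 7 lower in H. Without the variance trend there were 0 in the interaction and 0 at RNA-1 in fat body and 3 lower in M ovaries. With no filter there were 0 in H heads and 0 at RNA-1 in fat body, where a minimum of 50 and a pseudocount of 5 each gave 3. The 6 libraries alone gave 3 in H heads, 0 at RNA-1 in fat body, 1 lower in M ovaries and 1 higher at RNA-1 in ovaries. With the length trend removed there were 14 higher in H heads, 13 lower in M fat body and 1 in the interaction of fat body. The germline covariate gave 0 in the interaction and 0 at RNA-1 in fat body. Without the doubted libraries there were 7 higher in H heads, 4 lower in H fat body, and 0 in the interaction and 0 at RNA-1 in fat body.

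Same-numbered libraries did not deviate together (median r 0.02 for head, 0.01 for fat body and 0.06 for ovaries over 15 pairs each), so the numbers do not pair the libraries. The replicate block gave 0 in H heads, 17 lower in H fat body, 0 in the interaction and 0 at RNA-1 in fat body, and 3 higher at RNA-1 in ovaries.

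With 1 library left out, the counts ranged from 0 to 22 lower in M heads, 0 to 6 higher in H heads, 0 to 28 higher in the interaction of head, 0 to 27 lower at RNA-1 in head, 0 to 1 lower in M fat body, 21 to 30 lower in H fat body, 0 to 8 lower in its interaction, 0 to 4 higher at RNA-1 in fat body, 1 to 5 lower in M ovaries, 9 to 15 lower in H ovaries, 0 to 3 lower in the interaction of ovaries and 1 to 6 higher at RNA-1 in ovaries. Of 55 calls, 55 held with a minimum of 50, 55 with a pseudocount of 5 and 55 with both Prosalpha1 copies summed. Fewer held with quantile normalization (35), with the replicate block (34) and after division by library totals (10). With the 6 libraries alone 40 of 53 held. The depth in reads is unknown, so no counting interval is given.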

Other observations

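Flies carry extra copies of several subunit genes that are known from the testis, and 8 of 16 such copies were listed in the tables of head and fat body and 7 in that of ovaries, of which 6, 4 and 3 passed the filter on low values. All but Prosalpha1R were expressed at a small part of the level of the subunit genes in these females. In head, Rpt4R had 1, 1.46 and 0.609 normalized counts in H RNA-1 and 41.1, 16.3 and 19.2 in H RNA-2 libraries, and 1.3, 5.75 and 6.57 in M RNA-1 and 19.6, 14.2 and 15.7 in M RNA-2. It was higher with age in both diets (limma adjusted p = 0.000796 and 0.0284), with no overlap between the ages. No fold is given, since the younger heads had so few reads. Rpt6R went from 14.9, 13.9 and 4.74 to 36.7, 28.7 and 52.8 in H heads and from 13.9, 19.3 and 11.5 to 45, 41.5 and 28.1 in M heads and was higher in both (limma adjusted p = 0.0116 and 0.0396). In fat body Rpt3R was higher with age in H, from 64.4, 38.2 and 50.8 to 127, 91.8 and 116 (1.13 ± 0.25, limma adjusted p = 0.0143), while Rpt3 itself was lower there. Without the doubted libraries, Rpt4R and Rpt6R did not pass in M heads (limma adjusted p = 0.252 and 0.414) nor Rpt3R in H fat body (0.241), and both did in H heads (0.000548 and 0.0143). No copy passed in ovaries. Of all genes tested, 15.8% were higher with age in M heads, 11.0% in H heads and 6.55% in H fat body.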
